A study of Mus musculus with 6 samples.

Results

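The amino acid transporter genes described here are the members of 6 solute carrier families, Slc1a, Slc3a, Slc7a, Slc36a, Slc38a and Slc43a. Members were taken by symbol, as every gene of these families with a probe set that names a single gene on the array. This gave 42 genes of the 19936 measured, each read by its brightest probe set. Expression was measured on Affymetrix arrays in colon epithelium of male mice aged 8 weeks on the C57BL/6J background, 3 arrays of Sel1L knockout (KO, Sel1L-delta-IEC) and 3 of wild type (WT). The KO mice were Sel1Lflox/flox, with exon 6 between loxP sites, and carried Cre under the villin-1 promoter, which is active in intestinal epithelial cells. The lacZ-neo cassette of the targeted allele had been removed with a βActin-FLPe deleter line, and the Cre line had been backcrossed to C57BL/6J for more than 5 generations. Whether WT mice carried floxed alleles, and whether each array stands for a separate mouse, is not given in the sources used here, so p-values measure only the spread between these arrays.

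Sel1L is the adaptor of the Hrd1 ubiquitin ligase in endoplasmic reticulum (ER)-associated degradation, and the study asks about the ER stress sensor IRE1α as a protein degraded by this pathway. Amino acid transporters supply cells with the amino acids that protein synthesis, glutathione synthesis and the growth regulator mTORC1 depend on. When an eIF2α kinase such as PERK is active, general translation falls while the transcription factor ATF4 is made, and ATF4 induces transporters and synthesis enzymes for amino acids, often through a C/EBP-ATF composite element. In the colon, the epithelium takes up amino acids from both the lumen and the blood, and several Slc7 carriers reach the membrane only when joined to a heavy chain of the Slc3 family.

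Levels are log2 RMA values. Each difference is KO minus WT in log2 units, given with its moderated standard error (SE), and a gene was called at a limma adjusted p under 0.05 over all genes. Sel1l itself read 8.70, 9.06 and 8.66 on KO arrays, against 9.45, 9.67 and 9.54 on WT arrays, with a difference of -0.74 ± 0.11 (SE, adjusted p = 0.018, exact two-sided permutation p = 0.1, the smallest that 3 arrays against 3 can give). Without KO replicate 1, KO replicate 3, WT replicate 1 or WT replicate 2 the difference ran from -0.79 to -0.67 and was not called (adjusted p from 0.055 to 0.087). Whether the probe set covers exon 6 was not tested. The 7 epithelial markers (Epcam, Cdh1, Krt8, Krt18, Krt19, Vil1, Cldn7) averaged 11.91 to 11.95 on KO arrays and 11.98 to 12.03 on WT arrays. None was called in limma, while 3 had an unadjusted p under 0.05, all lower, against 13.3% of all genes in either direction. Of these 3, Epcam and Cdh1 were called lower with an intensity trend or without the dimmest 50% of genes. Among 40 measured markers of immune, stromal, vascular and nerve cells none was called in limma and 1 had an unadjusted p under 0.05, against the same 13.3%. Of the 40, 9 lay above 6.34, the median of all probe set values. The macrophage marker Cd14 (-0.35, adjusted p = 0.054) was called lower under 5 alternatives, and the fibroblast marker Dcn without WT replicate 2. From lists of 8 small intestinal and 5 pancreatic genes measured, 1 each was called lower, against 0.712% of all genes. These were Rbp2 (-0.33 ± 0.055) and Cela1 (-0.68 ± 0.083). The list medians were 0.064 and -0.043, and differences were positive in 5 of the 8 and 1 of the 5. Rbp2 was not called in any fit with an array left out, WT replicate 3 included, and Cela1 was not called without KO replicate 1. In bulk tissue, fewer cells of a type and less RNA per cell cannot be told apart. WT replicate 3 stood apart from the other WT arrays in the transporters of the stress response, so results are given with and without it. It was thus singled out on the values of these same genes. Where it is the highest WT array, leaving it out raises the difference by construction. Larger differences and added calls without it are therefore no independent support.

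The transporter promoters that carry letters of the ATF4 element are shown first, because the changed members are read against them below. The element searched was TGATGNAA, or TTNCATCA on the opposite strand, the core of the C/EBP-ATF composite element, in windows of 250 bases before to 50 after each annotated start (RefSeq, GRCm38.p6). Of the 42 members, 31 had an entry in the promoter table, with 42 windows among them, and 3 genes held the letters (Slc7a11, Slc1a4 and Slc7a7). Over the whole table, 3.97% of 32851 windows and 4.51% of 27025 genes held them. The Slc7a11 window (chr3:50443564-50443863, minus strand) held 2 matches, beginning 66 and 47 bases before the start, on opposite strands and with 11 bases between them. The Slc1a4 window (chr11:20332664-20332963, minus strand) held 1 match beginning 4 bases before the start. The Slc7a7 gene has 5 annotated starts, and the window shown (chr14:54417895-54418194, minus strand) held 2 matches, beginning 141 and 1 bases before the start, the second of which also lay in an overlapping window. Capitals mark the matched letters, and each sequence runs 5′ to 3′ on the strand of the gene. Slc7a11 and Slc1a4 are among the members that rose in KO, and Slc7a7 was not called. Slc7a5 and Slc7a3, which also rose, and Slc1a5 had no entry in the table and were not searched. Of the stress-induced members defined below, 5 had an entry and 2 of these held the letters. Slc3a2, Slc7a1 and Slc38a2 were searched and held no match to this element.
Slc7a11: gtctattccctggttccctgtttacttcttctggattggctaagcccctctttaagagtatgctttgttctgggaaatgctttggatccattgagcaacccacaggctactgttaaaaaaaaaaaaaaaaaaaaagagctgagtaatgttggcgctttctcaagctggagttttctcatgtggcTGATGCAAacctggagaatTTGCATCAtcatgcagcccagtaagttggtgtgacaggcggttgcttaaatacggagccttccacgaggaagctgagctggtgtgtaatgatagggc
Slc1a4: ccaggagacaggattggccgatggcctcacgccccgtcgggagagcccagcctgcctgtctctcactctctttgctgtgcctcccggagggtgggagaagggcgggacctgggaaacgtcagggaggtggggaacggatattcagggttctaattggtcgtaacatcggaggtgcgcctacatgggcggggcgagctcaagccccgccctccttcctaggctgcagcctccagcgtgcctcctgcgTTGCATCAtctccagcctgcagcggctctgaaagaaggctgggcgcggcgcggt
Slc7a7: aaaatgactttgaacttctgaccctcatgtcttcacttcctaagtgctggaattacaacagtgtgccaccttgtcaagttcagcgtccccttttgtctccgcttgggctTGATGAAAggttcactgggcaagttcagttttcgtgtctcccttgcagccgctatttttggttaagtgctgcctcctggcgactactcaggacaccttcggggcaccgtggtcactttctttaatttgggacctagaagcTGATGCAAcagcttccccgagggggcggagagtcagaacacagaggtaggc

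Other stress elements were searched in the same windows on both strands. The letters TGACNNNGC, the core of the antioxidant response element bound by NRF2, were in windows of 5 of the 31 members (Slc7a1, Slc7a6, Slc36a1, Slc38a2 and Slc43a1), against 14.0% of all genes. The ER stress response element, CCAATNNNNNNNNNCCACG, was in no member window and in 0.137% of all genes. None of the 3 genes with the ATF4 letters held either of the other motifs, so no matches overlapped. A match is a description of letters in a window and was not tested as a binding site.

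Across the 42 transporters, 4 rose and 1 fell, where 1.63% of all genes were called, 0.918% higher and 0.712% lower. The 4 that rose were Slc7a11, Slc7a5, Slc7a3 and Slc1a4, and the 1 that fell was Slc36a1. In 14 members, called or not, every KO array lay above every WT array, and in 3 every KO array lay below, against 11.4% above, 7.98% below and 19.4% either way among all genes. The median difference was 0.10 over the members and 0.019 over all genes, and 32 of 42 differences were positive, against 57.2% of all genes. After quantile normalization or median centring 29 of 42 were positive.

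**Figure D1:**
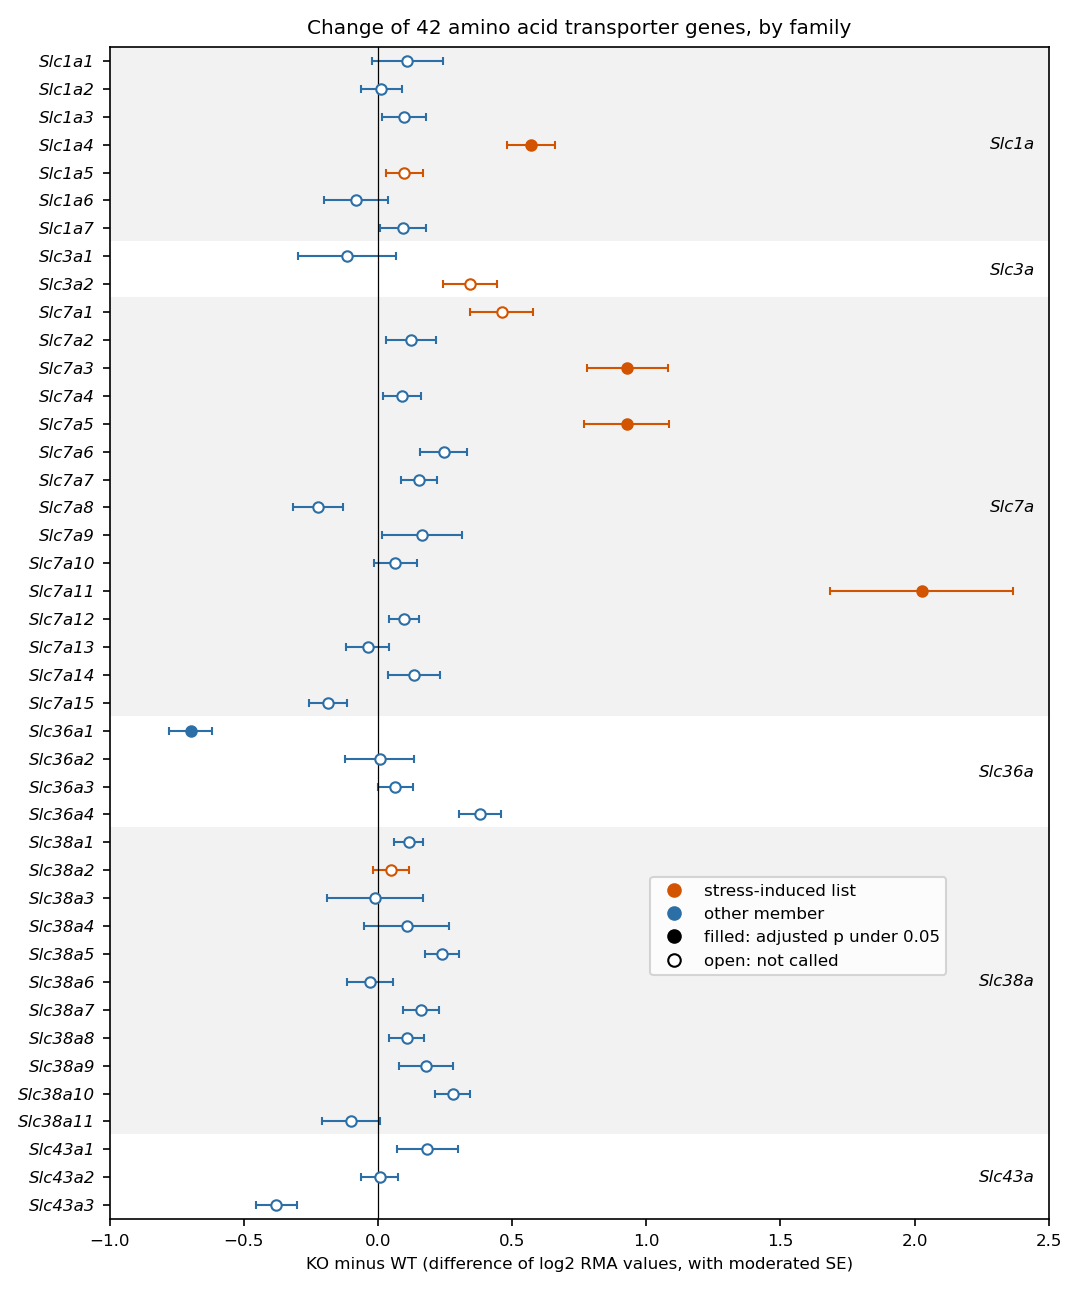
Difference between KO and WT (x axis, log2 RMA units, points with moderated SE) for the 42 transporter genes, grouped by family down the page, with the stress-induced list in orange and called genes filled. Slc7a11 lies farthest right at 2.03 and Slc36a1 farthest left at -0.70, while most members lie near 0.

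The stress-induced members were taken as the 8 genes known as ATF4-induced in the amino acid or unfolded protein response, namely Slc1a4, Slc1a5, Slc3a2, Slc7a1, Slc7a3, Slc7a5, Slc7a11 and Slc38a2. Of these, 4 rose, none fell and 4 were not called, where 0.918% of all genes were called higher and 0.712% lower. The median difference was 0.52. Without WT replicate 3, the array singled out on these same genes, 6 rose and the median was 0.64. Among the other 34 members none rose and 1 fell, with a median of 0.095, which was 0.048 without KO replicate 3 and 0.041 without WT replicate 2. The count of 0 depended on the setting, since Slc36a4 was called higher under 5 alternatives and Slc38a10 under 2 of them. KO lay above WT without overlap in 6 of the 8 and in 8 of the other 34, against 11.4% of all genes. The list rests on a known direction in earlier work and on results of these data already known, so its counts are a description and the difference between the classes was not tested.

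The largest difference was that of Slc7a11. It encodes xCT, the light chain of the cystine-glutamate exchanger, whose cystine feeds glutathione synthesis. The gene read 8.68, 8.91 and 8.62 on KO arrays, against 6.02, 6.48 and 7.63 on WT arrays. All KO arrays lay above all WT arrays, and WT replicate 3 lay more than 1 log2 unit above the other WT arrays. The difference was 2.03 ± 0.34 (SE, adjusted p = 0.028), a 4.08-fold higher level in KO, and 2.49 ± 0.14 without WT replicate 3 (adjusted p = 0.00093). Its promoter is the one shown above with 2 facing matches to the ATF4 element.

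Slc7a5 also rose. It encodes LAT1, the light chain that carries leucine and other large neutral amino acids, and read 9.79, 9.90 and 9.75 on KO arrays, against 8.68, 8.68 and 9.31 on WT arrays. The groups did not overlap, and WT replicate 3 was again the highest WT array. The difference was 0.93 ± 0.16 (adjusted p = 0.028), a 1.90-fold higher level in KO, and 1.14 ± 0.075 without WT replicate 3 (adjusted p = 0.0015). Slc3a2 encodes 4F2hc (CD98), the heavy chain that brings both LAT1 and xCT to the plasma membrane. It read 10.81, 10.83 and 10.83 on KO arrays, against 10.35, 10.37 and 10.72 on WT arrays. KO arrays lay close together and above all WT arrays, but the difference of 0.34 ± 0.10 was not called (adjusted p = 0.17, 95% interval 0.11 to 0.57). Without WT replicate 3 it was 0.46 ± 0.065 and was called (adjusted p = 0.021).

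The other light chains that pair with 4F2hc were not called. Slc7a6 and Slc7a7, which encode the y+LAT exchangers for cationic and neutral amino acids, differed by 0.24 ± 0.088 and 0.15 ± 0.068. Slc7a8, which encodes LAT2, the close relative of LAT1, differed by -0.22 ± 0.094, and Slc7a10, a small neutral amino acid exchanger, by 0.063 ± 0.080. Their adjusted p ran from 0.27 for Slc7a6 to 0.80 for Slc7a10. Slc7a7, whose window also holds letters of the ATF4 element, read 8.90, 8.89 and 8.78 on KO arrays, against 8.62, 8.72 and 8.78 on WT arrays. KO was above WT there by less than 0.01 at the nearest pair of arrays (adjusted p = 0.38, 95% interval -0.0018 to 0.31). Grouped after their values were seen, Slc3a2 and its 6 partners had 2 called higher and none lower, against 0.918% and 0.712% of all genes.

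Slc3a1 encodes rBAT, the other heavy chain, which pairs with Slc7a9 for cystine and cationic amino acids at the apical membrane. It read 8.59, 8.90 and 8.29 on KO arrays, against 8.78, 8.98 and 8.36 on WT arrays. The groups overlapped throughout, with a difference of -0.12 ± 0.18 (adjusted p = 0.85). Slc7a9 differed by 0.16 ± 0.15 (adjusted p = 0.71), so neither component of the apical cystine carrier was called.

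Among cationic amino acid carriers, Slc7a3, which encodes CAT3 for arginine and lysine, rose. It read 6.15, 5.90 and 6.14 on KO arrays, against 5.39, 4.78 and 5.24 on WT arrays. Every KO array was above every WT array, and WT replicate 2 was the lowest array. The difference was 0.93 ± 0.15 (adjusted p = 0.024), a 1.90-fold higher level in KO, and 0.98 ± 0.17 without WT replicate 3 (adjusted p = 0.041). All its values lay below the median of all probe set values. Slc7a1 encodes CAT1, the widely expressed arginine carrier, and it read 9.10, 8.96 and 9.04 on KO arrays, against 8.52, 8.35 and 8.84 on WT arrays. The groups did not overlap, but the difference of 0.46 ± 0.12 was not called (adjusted p = 0.12). Without WT replicate 3 it was 0.60 ± 0.084 and was called (adjusted p = 0.021). Slc7a2 (CAT2), Slc7a4 and Slc7a14 differed by 0.12, 0.089 and 0.13 and were not called. The remaining Slc7 members, Slc7a12, Slc7a13 and Slc7a15, differed by 0.097, -0.039 and -0.19, and none was called.

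In the Slc1a family, Slc1a4 rose. It encodes ASCT1, a sodium-dependent exchanger of serine, alanine and cysteine, and its promoter holds the single match shown above. It read 9.19, 9.19 and 9.15 on KO arrays, against 8.48, 8.52 and 8.81 on WT arrays. The KO arrays agreed within 0.04 and lay above all WT arrays, of which WT replicate 3 was the highest. The difference was 0.57 ± 0.090 (adjusted p = 0.023), a 1.48-fold higher level in KO, and 0.67 ± 0.067 without WT replicate 3 (adjusted p = 0.0079). Slc1a5 encodes ASCT2, a main route of glutamine uptake, and it read 10.54, 10.61 and 10.63 on KO arrays, against 10.57, 10.39 and 10.53 on WT arrays. These groups overlapped, with a difference of 0.098 ± 0.068 (adjusted p = 0.60, 95% interval -0.057 to 0.25). Its interval lay below the 0.36 to 0.78 of Slc1a4, although the difference between the 2 genes was not tested.

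The glutamate carriers of the family were not called. Slc1a1 encodes EAAT3, the glutamate and aspartate carrier of intestine and kidney, and read 9.38, 9.24 and 9.38 on KO arrays, against 8.95, 9.19 and 9.52 on WT arrays. Its groups overlapped, with a difference of 0.11 ± 0.13 (adjusted p = 0.79). Slc1a2, Slc1a3, Slc1a6 and Slc1a7, best known from brain and retina, differed by -0.081 to 0.098 and lay below the median of all probe set values.

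**Figure D2:**
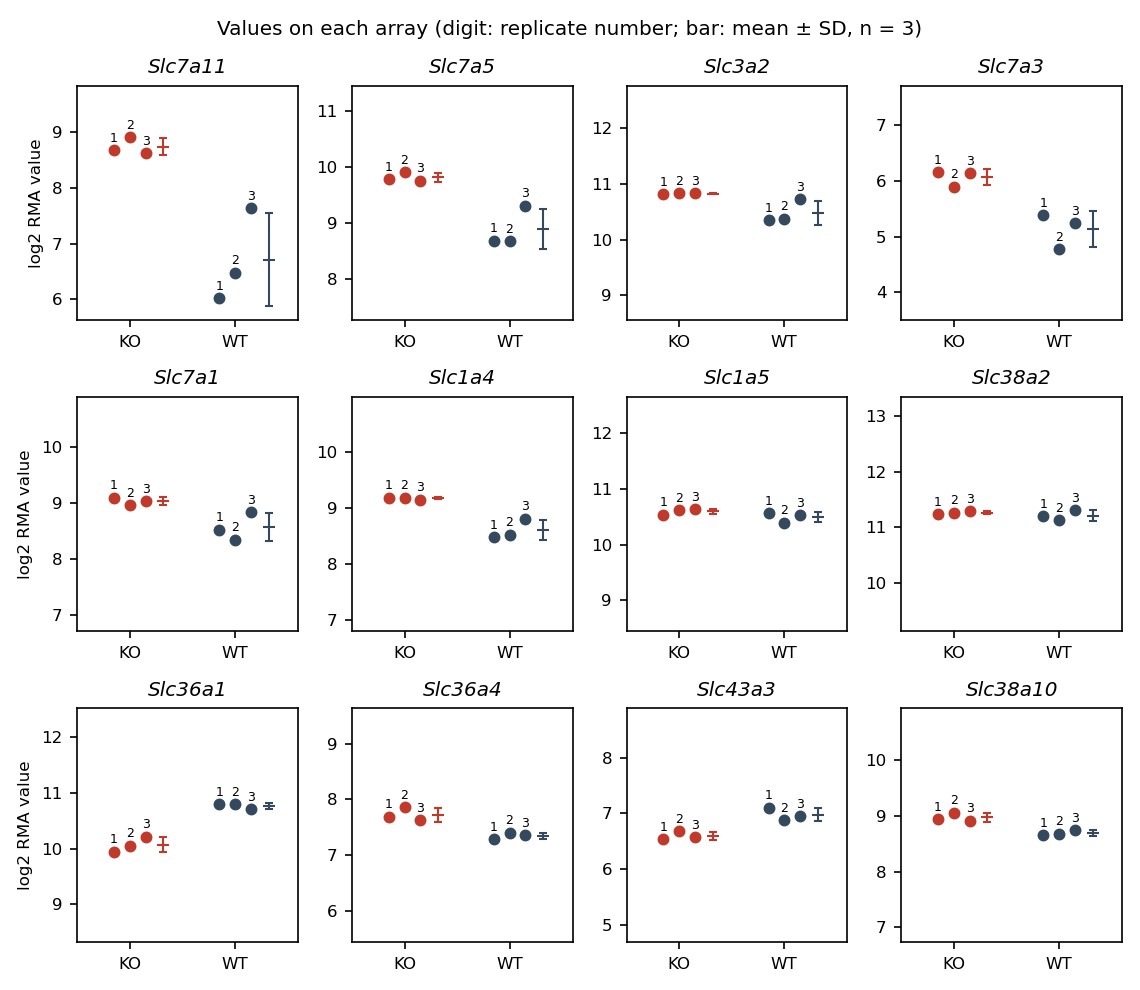
Values on each array (y axis, log2 RMA units, all panels spanning the same range) for 12 transporter genes, with KO left and WT right in each panel, the replicate number above each point and the mean ± SD of 3 arrays beside the points. WT replicate 3 lies between the other WT arrays and the KO arrays for Slc7a11, Slc7a5, Slc3a2, Slc7a1 and Slc1a4, whereas Slc36a1 has all KO arrays (9.94 to 10.22) below all WT arrays (10.71 to 10.80).

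The Slc38a family of sodium-coupled neutral amino acid transporters had no call among its 11 members, of which 3 had an unadjusted limma p under 0.05, all positive, against 13.3% of all genes. Slc38a2 encodes SNAT2, a glutamine and alanine carrier long used as a marker of amino acid shortage. It read 11.23, 11.26 and 11.28 on KO arrays, against 11.20, 11.12 and 11.31 on WT arrays. The groups overlapped, with a difference of 0.048 ± 0.067 (adjusted p = 0.82, 95% interval -0.11 to 0.20), and of the stress-induced list it had the smallest difference. Slc38a1, which encodes the related SNAT1, read 9.45, 9.47 and 9.45 on KO arrays, against 9.34, 9.33 and 9.35 on WT arrays. Its groups were apart by a small difference of 0.11 ± 0.054 that was not called (adjusted p = 0.42), and a second, dimmer probe set gave 0.14 with groups that overlapped. The smallest p of the family belonged to Slc38a10, with 8.94, 9.06 and 8.91 on KO arrays, against 8.65, 8.68 and 8.75 on WT arrays. Its groups did not overlap, and the difference of 0.28 ± 0.065 was not called (adjusted p = 0.092). Leaving out the dimmest 50% of genes (adjusted p = 0.031) or fitting an intensity trend (0.037) gave a call.

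Lysosomal members of Slc38a were also not called. Slc38a7, a lysosomal glutamine exporter, differed by 0.16 ± 0.066 (adjusted p = 0.345). Slc38a9, the lysosomal arginine sensor that acts on mTORC1, differed by 0.18 ± 0.10 (adjusted p = 0.51), and by 0.11 in a second probe set. Slc38a5, a glutamine carrier of the system N type, differed by 0.24 ± 0.063 (adjusted p = 0.13) with KO above WT on every array. Slc38a3, Slc38a4, Slc38a6, Slc38a8 and Slc38a11 ran from -0.10 to 0.11, with adjusted p from 0.55 to 0.99.

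Slc36a1 fell, against the direction of the other calls. It encodes PAT1, a proton-coupled carrier of small amino acids such as proline and glycine, found at the intestinal brush border and on lysosomes. It read 9.94, 10.05 and 10.22 on KO arrays, against 10.80, 10.80 and 10.71 on WT arrays. All KO arrays lay below all WT arrays, and WT arrays agreed within 0.1. The difference was -0.70 ± 0.080 (adjusted p = 0.0080), a 1.62-fold higher level in WT, and -0.73 ± 0.091 without WT replicate 3 (adjusted p = 0.016). Markers of absorptive colonocytes moved the same way, with 3 of 7 called lower (Atp12a, Aqp8 and Scnn1b), against 0.712% of all genes, and the list's mean level at 10.88 to 11.07 on KO arrays and 11.31 to 11.55 on WT arrays. Of these, only Atp12a was called in all 6 fits that drop an array. The count was 1 without KO replicate 1, WT replicate 1 or WT replicate 2, it was 2 without KO replicate 2 or 3, and without WT replicate 3 it was 3, with Car4 called in place of Scnn1b. Among them, Atp12a, a proton pump gene, fell by 0.81 on the log2 scale, whereas the colonocyte gene Car1 differed by 0.0058. The part of these markers in the Slc36a1 result was not tested.

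Slc36a4 encodes PAT4, a high-affinity carrier of proline and tryptophan, and it read 7.69, 7.87 and 7.63 on KO arrays, against 7.29, 7.40 and 7.35 on WT arrays. Every KO array was above every WT array, opposite to Slc36a1, but the difference of 0.38 ± 0.077 was not called (adjusted p = 0.056). It was called after quantile normalization (adjusted p = 0.048), with array weights (0.046), with an intensity trend (0.028) and without the dimmest 25% or 50% of genes (0.036 and 0.021). Slc36a2 and Slc36a3 differed by 0.0063 and 0.065, both below the median of all probe set values. The family median of 0.035 turned to -0.0036 after quantile normalization, so the family as a whole had no settled direction.

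In the Slc43a family none of 3 genes was called. Slc43a1 encodes LAT3, a uniporter of branched-chain amino acids, and read 6.872, 7.003 and 6.875 on KO arrays, against 6.850, 6.461 and 6.889 on WT arrays. Its groups overlapped, with a difference of 0.18 ± 0.11 (adjusted p = 0.55). Slc43a2, which encodes the related LAT4, differed by 0.0057 ± 0.069. Slc43a3, known as a carrier of purine nucleobases rather than amino acids, read 6.54, 6.68 and 6.58 on KO arrays, against 7.10, 6.88 and 6.95 on WT arrays. KO lay below WT on every array, with a difference of -0.38 ± 0.076 that missed the threshold (adjusted p = 0.055) and passed it after quantile normalization (adjusted p = 0.033) or median centring (adjusted p = 0.032).

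By family, the calls were 1 of 7 in Slc1a, 0 of 2 in Slc3a, 3 of 15 in Slc7a, 1 of 4 in Slc36a, 0 of 11 in Slc38a and 0 of 3 in Slc43a. Among all genes 1.63% were called in either direction. Median differences were 0.098 in Slc1a, 0.13 in Slc7a and 0.11 in Slc38a, and each stayed positive after quantile normalization or median centring. The Slc43a median of 0.0057 turned to -0.016 under both. The families were not tested against each other. All 3 calls in Slc7a were among its 4 stress-induced genes, as the plot of differences by family shows.

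Among the called members, only Slc36a1 kept its call with each of the 6 arrays left out, with adjusted p up to 0.041. Slc7a3 kept its call without any 1 of the WT arrays and lost it without each KO array (adjusted p up to 0.11). The calls of Slc7a11, Slc7a5 and Slc1a4 held only when WT replicate 3 was the array left out, and the adjusted p was otherwise up to 0.11, 0.11 and 0.10. The number of members called higher was thus 0 without any 1 KO array, 1 without WT replicate 1 or 2 and 6 without WT replicate 3, where 0.953% of all genes were called higher. The number called lower was 1 in each of these fits. All differences of these 5 genes kept their sign.

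**Figure D3:**
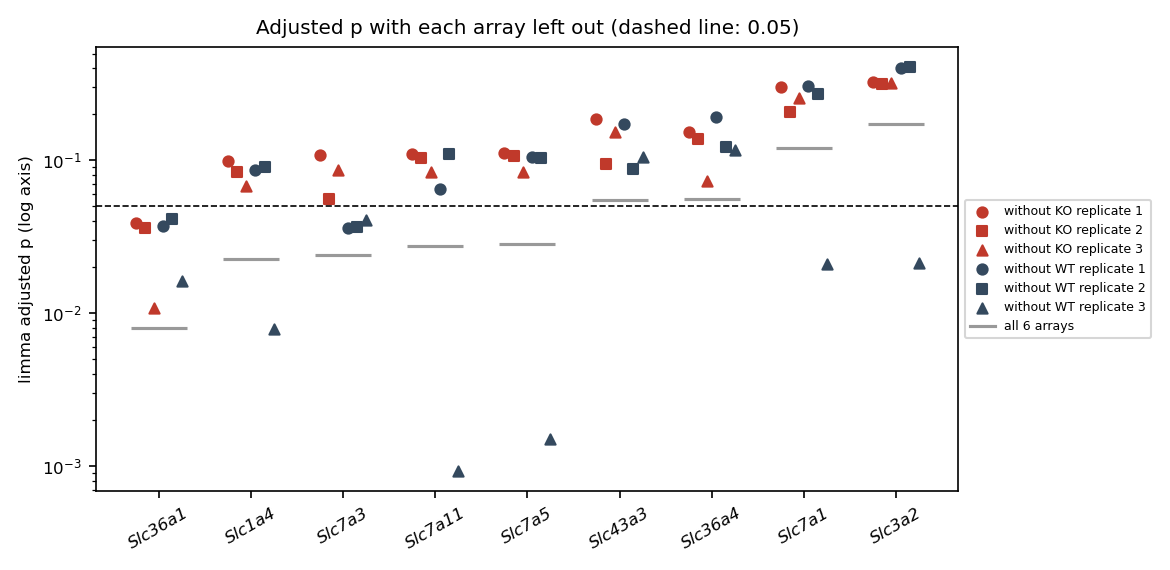
Limma adjusted p (y axis, log scale, dashed line at 0.05) for 9 transporter genes with each array left out in turn, KO arrays in red and WT arrays in dark blue, and a grey bar for all 6 arrays. Slc36a1 stays under the line in all 6 fits, whereas Slc7a11, Slc7a5, Slc1a4, Slc7a1 and Slc3a2 are under it only without WT replicate 3 among these fits.

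The stress-induced members varied more among WT arrays than among KO arrays. The SD over WT arrays exceeded that over KO arrays in 8 of 8 of them, in 15 of the other 34 members and in 48.8% of all genes. Their median SD was 0.060 over KO arrays and 0.23 over WT arrays, and all genes had 0.084 and 0.082. WT replicate 3 was the highest WT array in 6 of the 8, in 13 of the other 34 and in 37.0% of all genes. As a mean over the 8 genes, KO arrays lay 0.67, 0.68 and 0.67 above the WT mean, while WT arrays 1, 2 and 3 lay at -0.11, -0.18 and 0.29. The KO values were nearly equal, and WT replicate 3 lay between them and the other WT arrays. The cause was not tested.

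The ATF4 axis and amino acid synthesis were described beside the transporters. Their lists hold known pathway genes but were chosen with earlier results of these data known. Their counts are therefore a description and no independent support for the transporter result. Of 14 measured genes of the ATF4 axis, 5 rose and none fell, with a median of 0.27, where 0.918% of all genes were called higher and 0.712% lower. Atf5 (0.84 ± 0.084), Nupr1 (1.03 ± 0.11), Atf4 (0.54 ± 0.066) and Ddit3 (0.79 ± 0.098) had the smallest p, followed by Trib3 (0.85 ± 0.13), an inhibitor of ATF4, all with adjusted p from 0.0064 to 0.019. Eif2ak3, which encodes PERK, was not called, at 0.33 ± 0.091 (adjusted p = 0.155). Eif2ak2, which encodes the double-stranded RNA-activated kinase PKR, was at -0.35 ± 0.070 with KO below WT on every array (adjusted p = 0.056). It was called lower after median centring, with an intensity trend and without the dimmest 25% or 50% of genes (adjusted p from 0.018 to 0.043). Trib3 was called with an array left out only where that was WT replicate 3, with adjusted p otherwise up to 0.079. Without KO replicate 1, Atf4 missed the threshold as well (adjusted p = 0.052) and the count was 3, and without WT replicate 3 it was 5.

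Of 17 measured enzymes of amino acid synthesis and linked mitochondrial steps, 10 rose and none fell, with a median of 0.58. Among all genes 0.918% were called higher and 0.712% lower. Aldh1l2 (2.65 ± 0.14), Pck2 (1.38 ± 0.097), Psat1 (1.22 ± 0.11) and Bcat2 (0.78 ± 0.076) had the smallest p (adjusted p from 0.00034 to 0.0064), and all 4 kept the call with each array left out. As a mean over these enzymes, KO arrays lay 0.67 to 0.73 above the WT mean, while WT arrays 1, 2 and 3 lay at -0.083, -0.050 and 0.13. The SD over WT arrays exceeded that over KO arrays in 8 of 17 enzymes, near the 48.8% of all genes, and in 10 of 14 ATF4 axis genes. WT replicate 3 was the highest WT array in 12 of the 17 enzymes and in 7 of those 14, against 37.0% of all genes. Without WT replicate 3, 10 of 17 were called higher, against 0.953% of all genes. The count was 9 without KO replicate 3 and 8 without KO replicate 2, where 187 and 120 of 19936 genes were called in either direction. It was 7 without KO replicate 1, WT replicate 1 or WT replicate 2, where 69, 96 and 95 genes were called.

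**Figure D4:**
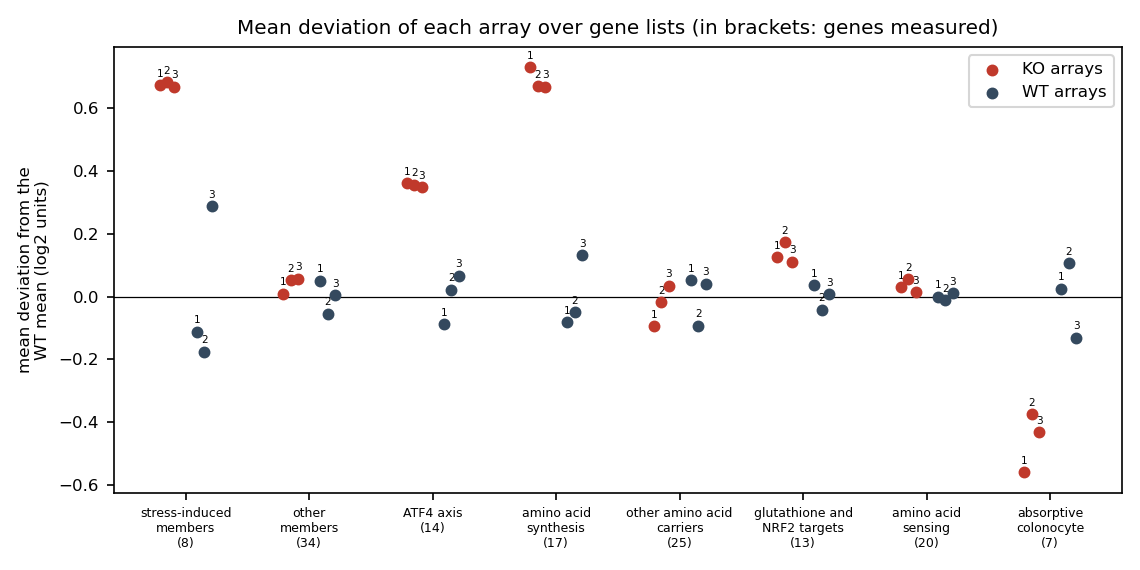
Mean deviation of each array from the WT mean (y axis, log2 units) over 8 gene lists, with KO arrays in red left of WT arrays in dark blue, replicate numbers above the points and the number of measured genes in brackets. The stress-induced transporters have KO arrays at 0.67 to 0.68 and WT replicate 3 at 0.29, whereas the other 34 transporters have all arrays within 0.06 of the WT mean.

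Amino acid and peptide carriers outside the 6 families had 1 gene higher and 1 lower of 25, with a median of 0.0022, where 0.918% of all genes were called higher and 0.712% lower. Slc6a9, which encodes the glycine carrier GLYT1, rose, with 10.02, 9.96 and 9.94 on KO arrays, against 9.32, 9.17 and 9.62 on WT arrays. KO arrays lay above all WT arrays, with a difference of 0.60 ± 0.11 (adjusted p = 0.036), a call that among the fits with 1 array left out held only without WT replicate 3 (adjusted p up to 0.14). Slc15a1 encodes PEPT1, a proton-coupled carrier of di- and tripeptides, and it fell, with 9.43, 9.93 and 9.61 on KO arrays, against 10.36, 10.61 and 10.34 on WT arrays. KO arrays lay below all WT arrays, with a difference of -0.78 ± 0.13 (adjusted p = 0.026), and the call held without KO replicate 2 or WT replicate 3 and not without the other arrays (adjusted p up to 0.097). Slc6a14, a broad amino acid carrier of the colon's apical membrane, read 11.34, 11.42 and 11.32 on KO arrays, against 11.67, 11.68 and 11.59 on WT arrays. Its groups did not overlap, and the difference of -0.29 ± 0.061 was not called (adjusted p = 0.065). It was called after quantile normalization (adjusted p = 0.047), with an intensity trend and without the dimmest 25% or 50% of genes, where 2 of the 25 were then called lower.

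Genes that use or regulate cystine uptake were described beside Slc7a11. None of 13 measured genes of glutathione synthesis and NRF2 targets was called in limma, and 3 had an unadjusted p under 0.05, against 13.3% of all genes, with a median of -0.012. Among those 3 was Chac1, whose product degrades glutathione, with 9.02, 9.67 and 9.38 on KO arrays, against 7.201, 7.069 and 8.574 on WT arrays. KO arrays lay above all WT arrays, WT replicate 3 was the highest of the WT arrays, and the difference of 1.74 ± 0.36 was not called (adjusted p = 0.062). Without WT replicate 3 it was called (adjusted p = 0.0023), the 1 call among the 13 genes in that fit. It was also called after median centring (adjusted p = 0.0496), where the count was 1, and with an intensity trend or without the dimmest 25% or 50% of genes, where the count was 2 with Hmox1, an NRF2 target, as the other. Nfe2l2, which encodes NRF2, differed by -0.038 ± 0.075, and Gclm and Gclc, the subunits of the first enzyme of glutathione synthesis, by -0.064 and -0.012. Of 5 measured partners and regulators of the carriers none was called and none had an unadjusted p under 0.05, among them Cd44, whose product stabilises xCT at the membrane (-0.19 ± 0.12, adjusted p = 0.58). Of 20 genes of amino acid sensing upstream of mTORC1 none was called and 3 had an unadjusted p under 0.05, against 13.3% of all genes, with a median of 0.040.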

How the data were processed

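RMA was used by the authors, per the submitters' processing notes. The deposited values lie in the range of log2 values, and the RMA software and its version are not named in the sources used here. Array medians were 6.32 to 6.36, so values entered the fit as deposited. The number of arrays limits the precision.

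Of 35556 probe sets, 21789 named 1 gene. Symbols were updated through RefSeq tables (GRCm38.p6), and 88 were kept as annotated. The brightest probe set of each gene gave 19936 genes. The 42 members had 44 probe sets.

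Genotype was the only term in limma 3.58.1 (R 4.3.3, lmFit and eBayes, two-sided), with Benjamini-Hochberg adjustment over all genes at 0.05. Intervals are 95% intervals of that fit. The fit was run on data simulated with independent normal errors and its own variances. Such a run cannot show how well the fit suits these arrays. Members, gene lists and alternatives were chosen with earlier results of these data known. Per-array values are given for called and stress-induced members and, per family, the 2 brightest and the smallest p. From the other lists, up to 4 called genes by smallest p and some set genes are named. The antioxidant and ER stress motifs, the heavy chain groups, Slc7a7, Chac1, Hmox1, Cd14, Dcn, Eif2ak2, Aqp8, Scnn1b, Car4, Atp12a, Car1, Rbp2, Cela1, Gclm and Gclc were chosen after values were seen. No batch is recorded in these sources. Alternatives were other scalings (quantile, median), filters on dim genes, other variance models, array weights, mean probe sets, a replicate block and each array left out.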

Additional observations from a re-analysis of the deposited data

How the results depend on the processing

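With 3 arrays a group, the calls of single transporters are less stable than their direction. Of 646 member values recomputed under up to 16 alternatives, 581 kept direction and side of the threshold, 15 became called, 24 lost a call and 26 changed sign, and the sign changes fell in 10 members, none of them called. The number of members called lower was 2 (Slc43a3 beside Slc36a1) under quantile normalization, median centring, an intensity trend, array weights and without the dimmest 25% or 50% of genes, and 0 without moderation, which also called 0 members higher and 4 genes in all. All genes called numbered 614 with an intensity trend and 598 without the dimmest 50%, which left fewer genes (9968) to adjust over. Dropping single arrays, calls ran from 69 to 303 over all genes, from 0 to 6 for members higher and stayed at 1 for members lower, and the medians ran from 0.44 to 0.64 for stress-induced and from 0.041 to 0.11 for other members. Among transporters outside the stress-induced list, Slc36a4 was called higher under 5 alternatives and Slc38a10 under 2. Slc7a11 was not called with a robust prior (adjusted p = 0.069). Sel1l kept -0.74 without moderation and lost its call (adjusted p = 0.20), with values between -0.87 and -0.67 when single arrays were dropped. Sign changes were -0.025 for Slc1a2, -0.037 for Slc36a2 and -0.016 for Slc43a2 after quantile normalization, -0.0092, -0.015 and -0.016 after median centring, and -0.033 for Slc36a2 with array weights. Dropping single arrays, differences ran from -0.028 to 0.26 for Slc1a1, from -0.054 to 0.049 for Slc1a2, from -0.201 to 0.026 for Slc1a6, from -0.29 to 0.036 for Slc3a1, from -0.11 to 0.022 for Slc7a13, from -0.11 to 0.15 for Slc36a2, from -0.21 to 0.12 for Slc38a3, from -0.073 to 0.26 for Slc38a4, from -0.095 to 0.048 for Slc38a6 and from -0.051 to 0.042 for Slc43a2. The cause was not tested. A replicate block, with numbers taken from the titles, gave 217 calls in all and 4 members higher and 1 lower. Same-numbered arrays had deviations correlated at -0.10, 0.15 and 0.15 across genes, and differently numbered arrays ran from -0.26 to 0.12. With 3 arrays a group, these values cannot settle whether the numbers mark pairs. The main fit did not take them as pairs. The block changed no call among the 42 transporters. In the other lists, the calls of Slc6a9, Aqp8, Scnn1b and Rbp2 were lost (adjusted p from 0.057 to 0.077). Of the absorptive colonocyte markers, 1 was then called lower. Dim signal limits 19 of the 42 members, which lay below the median of all probe set values.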
